A study of Mus musculus with 4 samples.

Results

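The genes Psma3, Psma5, Psma6, Psmb1, Psmb3 and Psmb6 encode subunits of the proteasome 20S core, and their Nrf2 chromatin immunoprecipitation (ChIP-seq) signal in mouse esophagus is described here. They were chosen by gene name and make up 6 of the 1940 gene rows of the deposited table. That table lists a gene when at least 1 peak interval was called in or near it, so each of the 6 was already selected by a call in some library. The 3 ChIP libraries came from C57BL/6 mice that were wild-type, Nrf2KO (a knockout of Nrf2) or Keap1KO (a knockout of Keap1), with 1 library per genotype and the same Nrf2 antibody in all of them. The labels give no allele, Cre driver, age or number of animals, and do not say whether animals were pooled. The remaining sample, a pooled input DNA library, was not analysed here.

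The proteasome degrades proteins that carry a ubiquitin chain. Its 20S core is a barrel in which outer rings of alpha subunits gate the entry and inner rings of beta subunits hold the proteolytic sites, and a 19S regulatory particle caps the barrel, recognises the ubiquitin chain and unfolds the substrate. Nrf2, the product of Nfe2l2, switches on genes of the response to oxidants and electrophiles, for which it pairs with small Maf proteins on the antioxidant response element, and Keap1 is the adaptor that has it degraded by the proteasome. A related factor, Nfe2l1, is known to raise proteasome gene transcription when the proteasome is inhibited. In mice, loss of Keap1 is known to thicken the keratin layer of the esophagus.

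The promoter sequences are shown for the 3 genes whose intervals lay in or at the edge of the promoter window, Psma6, Psmb3 and Psmb6, and for Psma5, which stood farthest above Nrf2KO in the Keap1KO library. Each is the 250 bases before the gene start in RefSeq GRCm38.p6, on the plus strand, which is the strand of these 4 genes. Capitals mark matches to any of 6 short motifs searched on both strands, where the whole match lies within the printed bases. Psma6, chr12:55398575-55398824, holds CCGGAAG, the core bound by ETS factors, 132 bases upstream of the start.
Psma6: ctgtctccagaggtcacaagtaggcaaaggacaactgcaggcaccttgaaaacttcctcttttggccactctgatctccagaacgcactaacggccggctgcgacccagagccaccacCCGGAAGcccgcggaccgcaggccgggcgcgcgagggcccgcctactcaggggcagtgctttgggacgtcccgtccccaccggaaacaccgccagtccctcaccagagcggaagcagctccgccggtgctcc
Psmb3, chr11:97703184-97703433, holds the NF-Y motif CCAAT 85 and 43 bases upstream.
Psmb3: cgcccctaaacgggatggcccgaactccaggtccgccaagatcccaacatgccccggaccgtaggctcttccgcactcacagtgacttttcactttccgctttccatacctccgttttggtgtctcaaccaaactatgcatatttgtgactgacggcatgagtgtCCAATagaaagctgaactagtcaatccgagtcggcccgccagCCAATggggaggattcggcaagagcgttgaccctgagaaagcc
Psmb6, chr11:70525107-70525356, holds the antioxidant response element core TGACNNNGC in its last bases, as TGACGGAGC, and on the opposite strand the Sp motif GGGCGG 182 bases upstream.
Psmb6: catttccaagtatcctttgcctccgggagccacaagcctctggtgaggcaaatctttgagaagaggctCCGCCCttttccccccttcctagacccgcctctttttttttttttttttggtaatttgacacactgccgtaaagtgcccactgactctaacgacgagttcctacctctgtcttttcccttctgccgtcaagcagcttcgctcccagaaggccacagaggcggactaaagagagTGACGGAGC
Psma5, chr3:108256676-108256925, holds none of the 6.
Psma5: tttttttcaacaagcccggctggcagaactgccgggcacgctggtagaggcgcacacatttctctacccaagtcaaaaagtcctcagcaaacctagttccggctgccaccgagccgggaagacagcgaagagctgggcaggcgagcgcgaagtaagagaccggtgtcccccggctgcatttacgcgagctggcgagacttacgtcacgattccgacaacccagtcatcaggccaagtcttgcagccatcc

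The antioxidant response element core was found in 1 of the 6 RefSeq windows of the member genes, each running from 250 bases before to 50 bases after a gene start. The match in Psmb6 occupies chr11:70525348-70525356, the 9 bases directly before the start, and the Psmb6 interval is listed at position 70525408, 51 bp into the gene. The same letters occur in 12.4% of the 32851 mouse promoter windows and in 22.5% of the 547 windows of genes with an interval within 1 kb of the start. CCGGAAG was in 1 of the 6 member windows, in 8.86% of all windows and in 16.8% of those of genes with an interval near the start. CCAAT was in 3 of the 6, in 37.4% of all and in 34.2% of those of genes with an interval near the start. GGGCGG was in 1 of the 6, in 35.7% of all and in 61.4% of those of genes with an interval near the start. The AP-1 motif TGAGTCA was in none of the member windows, nor was the nuclear respiratory factor 1 motif. Their shares were 5.2% and 0.971% of all windows, and 7.5% and 1.46% for genes with an interval near the start. No 2 of these matches overlap. Psma6 holds 2 further CCGGAAG matches, across and just past its start. In Psma3, CCAAT lies 139 bases upstream of the start and in 2 places just past it. Psma6 has a further RefSeq start far upstream of the one used by the deposited table, and that window held CCAAT on both strands. It is 1 of the 3 member windows counted for CCAAT. Windows of such further starts are also among the 547. Psmb1 has no entry among the windows. The interval positions of Psma3 and Psma5 and the farther one of Psmb3 lie outside the windows. That of Psmb6 lies just past the end of its window. The letters at these positions were not searched. These matches describe letters only and are no measure of binding.

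Heights are given as deposited. They are average peak heights over the regions of a gene, without a stated unit, and the depth of the libraries is unknown. Folds and log2 ratios were computed on height + 1, which understates the contrast at low heights. Each genotype has 1 library, so no difference between genotypes could be tested and no replicate spread is known. Whether animals would vary by as much as the genotypes do here is not measured, and the order of genes by height carries no error estimate. At the genes of the deleted proteins, the heights in wild-type, Nrf2KO and Keap1KO were 17, 7 and 78 for Nfe2l2 and 6.33, 7.67 and 19.3 for Keap1. Those peaks lie on chromatin and do not check either deletion, and no tissue marker can be checked in ChIP signal.

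An interval was called in Keap1KO at 5 of the 6 genes, against 99.1% of all rows, and no interval of the table was called in Nrf2KO. With heights as deposited, Keap1KO was also the highest library at those 5 genes, as it was in 98.3% of all rows and in 95.8% of those within 1 kb of a start. At Psmb1 it was the lowest, as in 0.464% of all rows. Psmb1 was listed through a call in wild-type and not in Keap1KO, so that share is no like comparison. The median height of the 6 genes was 7 for wild-type, 8.25 for Nrf2KO and 20.5 for Keap1KO, whereas the 1940 rows had medians of 5.5, 5 and 18. Over the 522 rows with an interval within 1 kb of the gene start the medians were 6.88, 7 and 17.3. Such rows are 26.9% of the table, and 5 of the 6 genes belong to them.

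**Figure D1:**
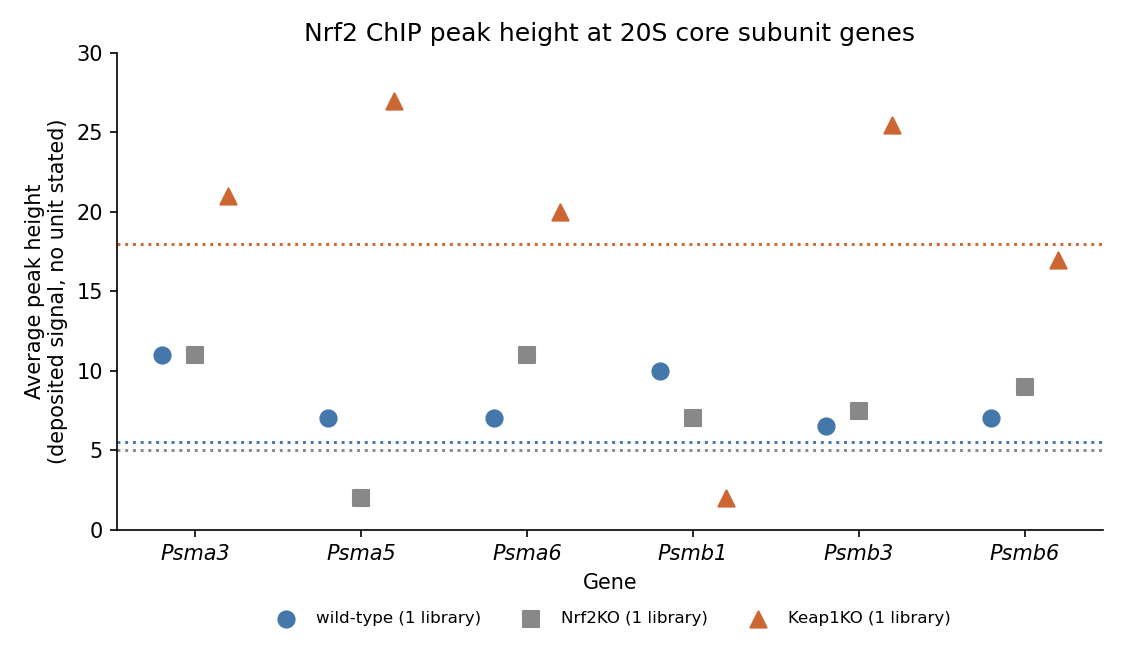
Average peak height as deposited (vertical axis, no unit stated) at the 6 genes (horizontal axis) in the wild-type, Nrf2KO and Keap1KO libraries, 1 point per library, with dotted lines at the median of all 1940 rows in the same colours. Keap1KO lies between 17 and 27 at 5 genes and at 2 at Psmb1, where wild-type is the highest at 10.

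Of the alpha-ring genes, Psma5 on chromosome 3 (GeneID 26442, 108256926 to 108279952) had the widest contrast. Its interval, listed at position 108257312, lay 386 bp into the gene and was called in Keap1KO only. Wild-type had a height of 7, Nrf2KO of 2 and Keap1KO of 27. The 3 libraries were thus spread out, and Nrf2KO was the lowest. Keap1KO was 3.50-fold above wild-type and 9.33-fold above Nrf2KO, and wild-type was 2.67-fold above Nrf2KO. The height of 2 in Nrf2KO is low for a gene start: 24 of the 522 rows within 1 kb of a start were at 2 or below. A wild-type over Nrf2KO ratio at least as large was found in 15 of those 522 rows and in 156 of all 1940. The interval is listed under Psma5 alone.

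Psma6, an alpha-ring gene on chromosome 12 (GeneID 26443, 55398825 to 55418459), had its interval 9 bp upstream of the start, at position 55398816. Wild-type had a height of 7, Nrf2KO of 11 and Keap1KO of 20. Here the library without Nrf2 was above wild-type. Keap1KO was 2.62-fold above wild-type and 1.75-fold above Nrf2KO, and Nrf2KO was 1.5-fold above wild-type. A Nrf2KO height of 11 or more was listed in 124 of all rows and in 67 of the 522 near a start. No other gene shares this interval.

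Psma3, also an alpha-ring gene on chromosome 12 (GeneID 19167, 70974623 to 70994937), had an interval 97 bp into the gene, at position 70974720. Wild-type had a height of 11, Nrf2KO of 11 and Keap1KO of 21. Wild-type and Nrf2KO were equal, and Keap1KO was 1.83-fold above both. The same interval is also listed under the upstream neighbour Actr10, which encodes a dynactin component, as lying 36863 bp from its start and beyond its end. Actr10 has a second region of its own, 225 bp upstream of its start. Taking the Psma3 region out of the mean for Actr10 left heights of 3, 7 and 12 for that second region in wild-type, Nrf2KO and Keap1KO. The interval counted for Psma3 was the taller of the pair in every library.

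Of the beta-ring genes, Psmb3 on chromosome 11 (GeneID 26446, 97703434 to 97713500) was the only member with more than 1 region. Its 2 intervals lay 714 and 154 bp upstream of the start, at positions 97702720 and 97703280, and both were called in Keap1KO. The mean over both regions was 6.5 in the wild-type library, 7.5 in the Nrf2KO library and 25.5 in the Keap1KO library. The low libraries were near each other, with Keap1KO 3.53-fold above wild-type and 3.12-fold above Nrf2KO. The table gives 39 as the highest Keap1KO region of Psmb3, which leaves 12 for the other, and does not say which of the intervals it belongs to. Among rows whose highest region was in Keap1KO, 168 reached 39 or more. Both intervals are also listed under Pcgf2, a Polycomb gene that starts 2937 bp away and runs in the opposite direction. They lie nearer to the start of Psmb3, at 2223 and 2783 bp from that of Pcgf2.

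Psmb6, which encodes the constitutive beta subunit with caspase-like activity, is also on chromosome 11 (GeneID 19175, 70525357 to 70527858). Wild-type had a height of 7, Nrf2KO of 9 and Keap1KO of 17. This was the lowest Keap1KO height of the 5 genes called there, and a height of 17 or more was listed in 1133 of all rows. Keap1KO was 2.25-fold above wild-type and 1.80-fold above Nrf2KO, with Nrf2KO 1.25-fold above wild-type. The interval is also listed downstream of Gltpd2, 6199 bp from the start of that gene. The promoter window of Psmb6 holds the antioxidant response element core shown above. Not all interval positions of the members, that of Psmb6 included, were searched for it. A link between the match and the height was not tested.

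Psmb1, a beta-ring gene without a catalytic site of its own, on chromosome 17 (GeneID 19170, 15475721 to 15498276, minus strand), went the other way. Its interval at position 15500011 lay 1735 bp upstream of the start and was called in wild-type and not in Keap1KO, as in 0.876% of all rows. Wild-type had a height of 10, Nrf2KO of 7 and Keap1KO of 2. Wild-type was 3.67-fold above Keap1KO, and Nrf2KO was 2.67-fold above it. A Keap1KO height of 2 was the lowest of the table and was shared by 4 rows at 2 loci, those of Psmb1 and Tbp and of Map4k5 and Atl1, which are named here after their values were seen. The interval is the same one for Tbp, the TATA-binding protein gene, which starts 1612 bp from the start of Psmb1 and runs the other way. It lies 123 bp into Tbp, so it is nearer to the start of Tbp than to that of Psmb1.

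**Figure D2:**
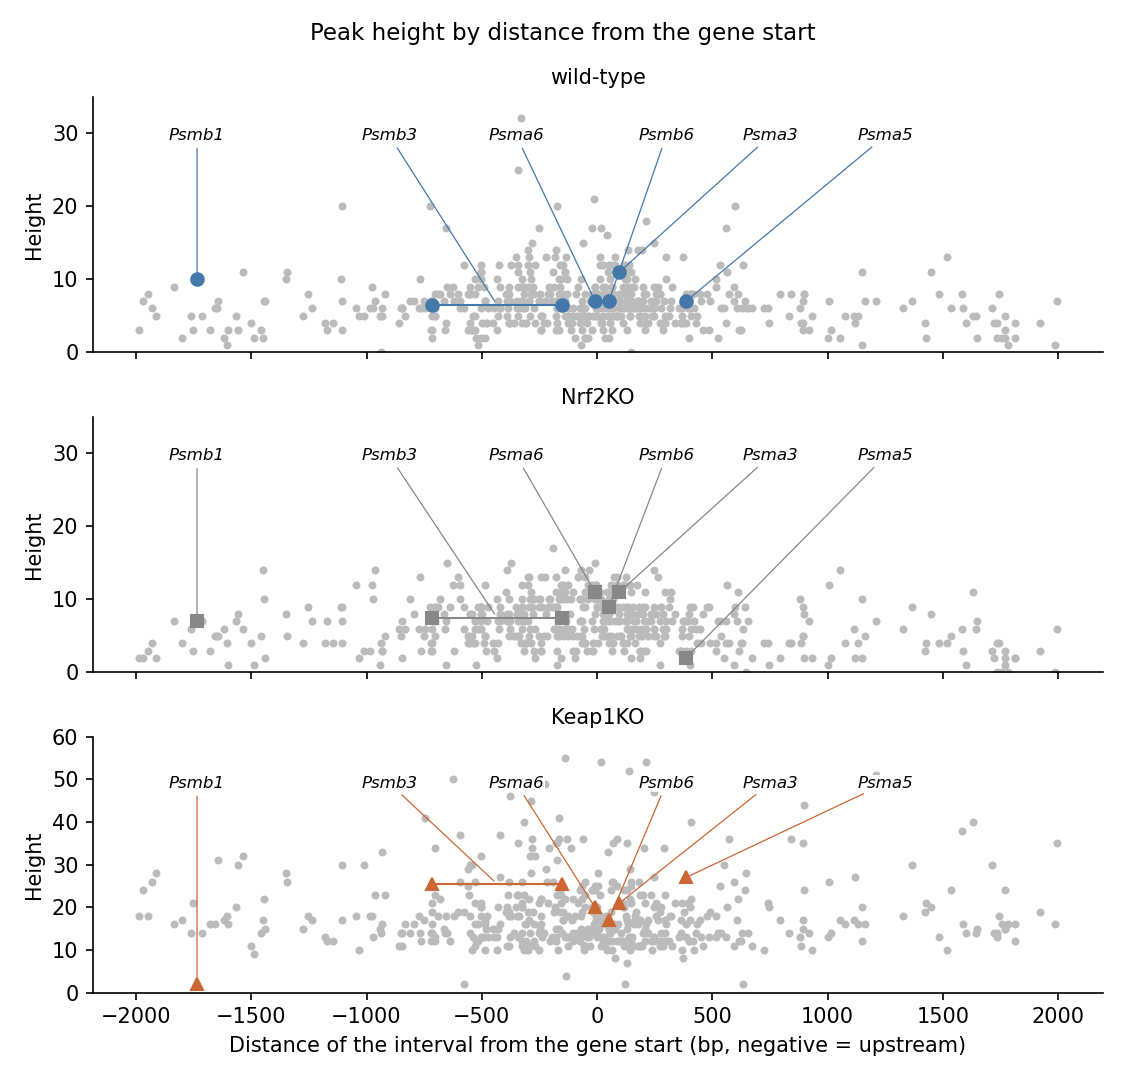
Peak height (vertical axes, deposited signal) against the distance of the interval from the gene start in bp (horizontal axis, negative upstream) in each library, with coloured points for the 6 genes and grey points for the 518 other rows with 1 region within 2000 bp. Psmb3 is drawn at both of its intervals with its mean height, and 16 grey points above 60 in Keap1KO are outside the axis. In Keap1KO, 5 genes sit among the rows near a start and Psmb1 lies at 2.

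In the comparison of Keap1KO with wild-type, which addresses the Nrf2 signal without its degradation adaptor, 4 of the 6 genes were at least 2-fold higher in Keap1KO, and this held for 86.4% of all rows and for 75.9% of those within 1 kb of a start. They were Psma5, Psma6, Psmb3 and Psmb6. Psmb1 was at least 2-fold lower, as were 0.309% of all rows, and Psma3 was neither. Like Psmb1, 17 of the 1940 rows were called in wild-type and not in Keap1KO. Such a selection favours a low ratio, and how far it accounts for that of Psmb1 was not tested. The median log2 ratio of the 6 genes was 1.28, against 1.70 over all rows and 1.42 near a start. Both the call in Keap1KO that put nearly all rows in the table and any difference in depth move this ratio, and their part was not tested. Dividing each library by its median height over all rows shifted the median log2 ratio of all rows by −1.56, and with that scaling Psma5 and Psmb3 remained above wild-type, at log2 ratios of 0.22 and 0.24, while the other 4 were below it. Scaled signs are relative to the other rows, of which 99.1% had a call in Keap1KO. A rise common to the table would be removed together with any difference in depth. Of all rows, 58.7% were above wild-type and 41.2% below with this scaling. It left 0 members at least 2-fold higher and 1, Psmb1, at least 2-fold lower, against 12.9% and 4.28% of all rows.

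Wild-type and Nrf2KO were compared for the signal that depends on Nrf2 with Keap1 present. A wild-type height 2-fold above Nrf2KO or more was found at 1 of the 6 genes, Psma5, against 17.5% of all rows and 8.43% of those near a start. No member was at least 2-fold lower, against 8.2% of all rows. By any amount, wild-type was higher at Psma5 and Psmb1 (52.2% of all rows), equal at Psma3 and lower at Psma6, Psmb3 and Psmb6. That is 3 of 6 with Nrf2KO above wild-type, against 36.8% of all rows and 46% near a start. The median log2 ratio was −0.09, against 0.15 over all rows and 0.00 near a start. Scaling by the median height moved the median of all rows by −0.12 and put 2 members above and 4 below Nrf2KO, against 51.0% and 48.5% of all rows.

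Against Nrf2KO, which gives the antibody background without its target, Keap1KO was 2-fold higher or more at 2 of the 6 genes, Psma5 and Psmb3. Over all rows 83.3% met this rule, and 66.1% near a start. Psmb1 was at least 2-fold lower, as were 0.206% of all rows, but it had no call in Keap1KO, whereas 99.1% of rows had. Psma3, Psma6 and Psmb6 were between 1.75-fold and 1.83-fold higher and were thus just short of the rule. The median log2 ratio was 0.86, against 1.83 over all rows and 1.30 near a start. This comparison shares its Keap1KO library with the first and its Nrf2KO library with the second, so the 3 are not independent. With each library divided by its median height, which shifted the median of all rows by −1.64, Psma5 was above Nrf2KO and the other 5 were below, against 57.4% and 41.9% of all rows.

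**Figure D3:**
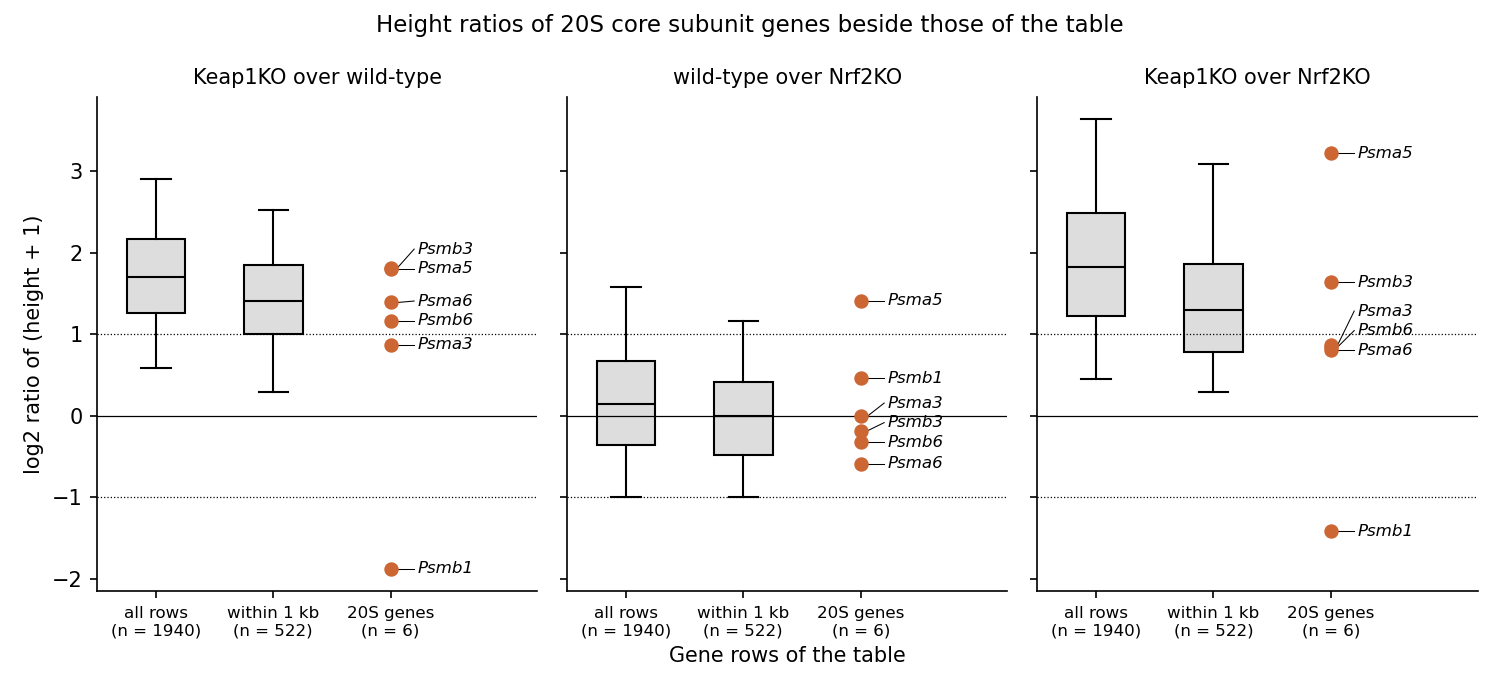
Log2 ratio of height + 1 (vertical axis) in the 3 comparisons for all 1940 rows, the 522 rows within 1 kb of a start and the 6 genes; boxes span the quartiles, whiskers run from percentile 5 to 95, and dotted lines mark a 2-fold ratio. Psmb1 lies below the whiskers in both Keap1KO comparisons, and Psma5 lies above the whisker of the rows near a start in both Nrf2KO comparisons. With each library divided by its median height, 4 of the 6 genes are below wild-type and 5 below Nrf2KO in Keap1KO. Those scaled signs are relative to the other rows and do not measure a loss of signal.

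At the 5 genes called in Keap1KO, the heights ran from 2 to 11 in Nrf2KO and from 17 to 27 in Keap1KO. The Nrf2KO heights of Psma3 and Psma6, at 11, and of Psmb3 and Psmb6, at 7.5 and 9, were above the median of 7 for rows near a start, and that of Psma5 was below it. Over the table, the median Nrf2KO height was 7 in the 391 rows less than 500 bp from a start and 4 in the 567 rows at 20000 bp or more. In wild-type those medians were 7 and 5, and in Keap1KO 17 and 17.5.

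The 6 genes are part of a longer list. Of the 19 genes of the 20S core, 8 had a row. The share of all mouse genes with a row was not computed. This count and those of the other lists thus have no background beside them. Besides the 6 these were Psma1 and Psma4, alpha-ring genes outside the rule, named after their values were seen. At Psma4 wild-type stood at 8, Nrf2KO at 3 and Keap1KO at 24, a low Nrf2KO height like that of Psma5. Psma1 had 11, 8 and 13, the narrowest contrast between Keap1KO and wild-type of the 8 at 1.17-fold, and was called in both of those libraries. With these genes added, 5 of 8 were at least 2-fold higher in Keap1KO than in wild-type and 3 of 8 than in Nrf2KO, against 86.4% and 83.3% of all rows (75.9% and 66.1% near a start). With each library divided by its median height these counts were 0 and 2, against 12.9% and 21.0% of all rows. For wild-type over Nrf2KO the median log2 ratio changed sign, from −0.09 for the 6 to 0.21 for the 8. Psma4 shares its interval with its neighbours Agphd1 and AY074887.

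Other proteasome genes were set beside the core. Of the 19 genes of the 19S particle, 9 had a row, with a median height of 7 for wild-type, 8 for Nrf2KO and 26 for Keap1KO. All 9 were at least 2-fold higher in Keap1KO than in wild-type and than in Nrf2KO with heights as deposited, rules that 86.4% and 83.3% of all rows also met. With each library divided by its median height, 5 were higher and 4 lower by any amount in each comparison, not the same genes in both. Of all rows, 58.7% and 57.4% were higher. Their Keap1KO heights ran from 14 at Psmc2, an ATPase of the base (5 in wild-type, 6 in Nrf2KO), to 49 at Adrm1, a ubiquitin receptor (7 and 13). For Keap1KO over Nrf2KO the median log2 ratio was 1.84 for these 9 and 0.86 for the 6 core genes. With 1 library per genotype the difference between the lists was not tested. Assembly chaperones, other activators and the inhibitor had 2 of 14 genes with a row. These were Pomp, a chaperone of core assembly, with 5, 4 and 18, and Psmd5, a chaperone of the 19S base, with 5, 4 and 16, in wild-type, Nrf2KO and Keap1KO. Of 4 genes of the Nfe2l1 branch, Vcp, the ATPase that extracts ubiquitinated proteins, had a row, with 10, 5 and 44. Its Keap1KO height was above those of all 8 core genes.

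**Figure D4:**
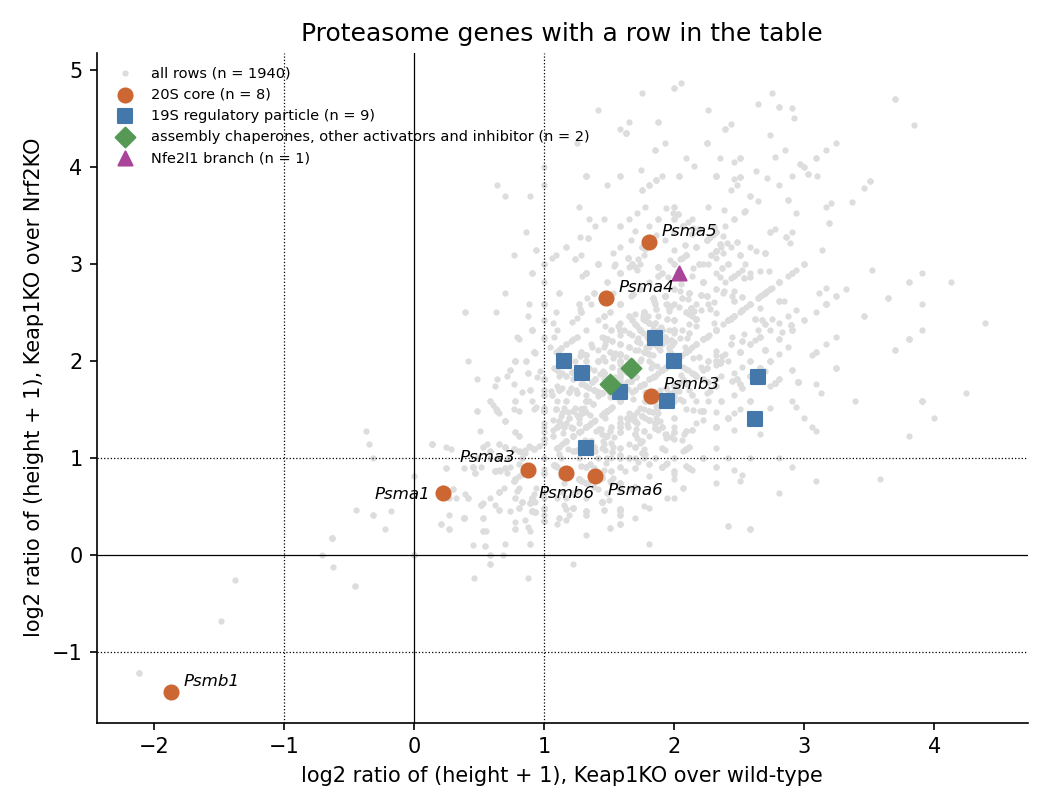
Log2 ratio of height + 1 for Keap1KO over wild-type (horizontal axis) and Keap1KO over Nrf2KO (vertical axis) for proteasome genes by list, with all 1940 rows in grey and dotted lines at 2-fold; both axes share the Keap1KO library. The 9 genes of the 19S particle lie beyond 2-fold on both axes with heights as deposited, and the 8 core genes run from Psmb1 at the lower left to Psma5 at the top. Counted for each axis separately, 4 of the 9 fall below 0 once each library is divided by its median height.

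Rows with the most similar profile were found by the Euclidean distance in log2 of height + 1 over the 3 libraries from the median profile of the 6 genes. Outside the proteasome lists and among genes with 1 region, Gm14488 and Mir3089, which share 1 interval, were nearest at a distance of 0.12, with heights of 7, 9 and 20 for wild-type, Nrf2KO and Keap1KO. Flot1, a membrane scaffold gene, followed at 0.16 with 7, 8 and 23. Of the members themselves, Psmb6, Psmb3, Psma6 and Psma3 lay 0.28 to 0.70 from the median profile, Psma5 lay at 1.66 and Psmb1 at 2.89. The median profile is thus unlike that of Psma5 and Psmb1, and the likeness rests on 3 libraries only.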

How the data were processed

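ChIP-seq for Nrf2 was deposited by the authors as 1 table with a row per gene. The submitters' processing notes name mm10 as build, the aligner BWA and the peak caller MACS2 2.1.0. Parameters, depth and scaling are not given in the sources at hand. Per the file headers, the deposited signal is an average peak height per gene and library, with a flag for a called interval. All heights were whole numbers in 1681 of the 1681 rows with 1 region. Columns were matched to samples by title, and the input library has no column. The members, gene lists and motifs were chosen with earlier results of these data known.

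Positions were computed from the gene start, strand and listed distance. Log2 ratios used a pseudocount of 1, and a rule of 2-fold describes size only. No test was made, because each genotype has 1 library. By rule, the text names the 6 members, genes sharing their intervals, the highest and lowest Keap1KO height of each list and the 3 nearest profiles. Outside that rule it names the targeted genes Nfe2l2 and Keap1 and, chosen after their values were seen, Psma1, Psma4 with its neighbours Agphd1 and AY074887, Map4k5 and Atl1. All 6 members matched the RefSeq table by gene ID, and 5 had promoter windows. Ratios and the motif search were tested on simulated data (Python 3.11.15, pandas 2.3.3). Alternatives covered pseudocounts, a filter on mean height, scaling and the choice of members. For the scaling, each library was divided by its median height over all rows. It was then multiplied by the geometric mean of the library medians, and the pseudocount was added last. Genes listed with the same interval are not separate measurements.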

Additional observations from a re-analysis of the deposited data

How the results depend on the processing

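No paired analysis was possible because there is a single library per genotype. A value was counted as moved when it shifted by at least 0.25 on the log2 scale or, for a count, by over 1.5 times. Of the values for the 6 genes together, with those for all 8 core genes counted in, 28 held, 3 moved and 3 changed sign. Counts of members at least 2-fold apart took both directions together. For Keap1KO over Nrf2KO that count held, although 2 higher and 1 lower became 1 and 1 with scaling. With a pseudocount of 5 they became 2 and 0. Some of those that held are not separate checks. Taking each interval once kept all 6 members, and the filters on mean height and on Keap1KO calls kept the same 5. With each library divided by its median height, the median log2 ratio of Keap1KO was −0.28 over wild-type and −0.85 over Nrf2KO, and 1 member was at least 2-fold apart in the first. This follows from dividing the Keap1KO library by 18 and the others by 5.5 and 5. All were then multiplied by the geometric mean of these medians before the pseudocount was added. A pseudocount of 5 gave a median of 0.97 for Keap1KO over wild-type and 0 members at least 2-fold apart for wild-type over Nrf2KO, since it shrinks ratios. All 8 core genes with a row, an alternative chosen after seeing the data, gave 0.21 for wild-type over Nrf2KO.

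For single genes the scaled log2 ratios of Keap1KO over wild-type changed sign at Psma3 (−0.72), Psma6 (−0.18) and Psmb6 (−0.39). Those over Nrf2KO did so at Psma3 (−0.85), Psma6 (−0.91), Psmb3 (−0.076) and Psmb6 (−0.85). A pseudocount of 0.5 moved none of the 18 single-gene ratios and a pseudocount of 5 moved 9. Unknown depth limits every ratio between libraries.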
